A study of Homo sapiens with 15 samples.

Results

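The aldehyde dehydrogenase (ALDH) family is described here across 3 human triple negative breast cancer cell lines, from RNA sequencing of cells sorted for a cancer stem cell (CSC) surface phenotype. The members are 10 genes chosen by symbol from the 33158 gene symbols with a value: ALDH1A1, ALDH1A3, ALDH1B1, ALDH2, ALDH3A1, ALDH3A2, ALDH3B1, ALDH3B2, ALDH4A1 and ALDH7A1. The 15 libraries form 5 groups of 3. SUM149PT and HCC1937 cells were stained with antibodies and sorted by flow cytometry into a CD44+CD24-/low fraction, called CSC, and the remaining cells, called non-CSC. SUM159PT cells were not sorted and are labelled as cancer stem cells, so in that group the line, the sorting and the fraction cannot be told apart. Poly(A) RNA was sequenced on an Illumina instrument, and each gene's level is given in FPKM (fragments per kilobase and per mapped total), a unit that allows for transcript length and library size. Read counts and the depth of each library are not in the files, so no counting interval or detection floor is given for any value. Nothing states whether the 3 libraries of a group came from separate cultures, so their spread, and each p-value resting on it, may be technical only.

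Aldehyde dehydrogenases oxidise aldehydes to carboxylic acids with NAD+ or NADP+ as the acceptor, and a cysteine in the active site forms the bond with the aldehyde. Members of the ALDH1A group turn retinal into retinoic acid, which acts through nuclear receptors, while other members clear aldehydes from ethanol, lipid peroxidation and the breakdown of amino acids. High aldehyde dehydrogenase activity in living cells, read with the ALDEFLUOR assay, is used beside the CD44+CD24-/low surface phenotype to mark breast cancer stem cells, and ALDH1A1 and ALDH1A3 are the members most often linked to that activity. RNA levels were measured here, not enzyme activity.

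The coding sequence around the catalytic cysteine is shown because it encodes the residue that the members have in common. All 10 members hold, once per chosen transcript, codons for glycine, glutamine, any residue and cysteine. For the 3 pairs of members with the highest identity over whole coding sequences, the 45 bases from 5 codons before the cysteine codon are printed from the GRCh38 reference (GENCODE release 29 transcripts), 5′ to 3′ on the coding strand, with the cysteine codon in capitals.
ALDH1A1: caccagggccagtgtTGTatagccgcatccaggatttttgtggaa
ALDH1A3: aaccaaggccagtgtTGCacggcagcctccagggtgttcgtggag
ALDH1B1: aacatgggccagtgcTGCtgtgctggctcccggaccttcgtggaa
ALDH2: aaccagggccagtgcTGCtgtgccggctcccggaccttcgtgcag
ALDH3B1: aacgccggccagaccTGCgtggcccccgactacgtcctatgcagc
ALDH3B2: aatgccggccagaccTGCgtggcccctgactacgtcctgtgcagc

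The ALDH1A1 window lies at chr9:72917019-72917063 on the minus strand and the ALDH1A3 window at chr15:100900616-100900660 on the plus strand. The ALDH1B1 window lies at chr9:38396688-38396732 and the ALDH2 window at chr12:111792639-111792683, both on the plus strand. The ALDH3B1 window lies at chr11:68021637-68021681 on the plus strand and the ALDH3B2 window at chr11:67665475-67665519 on the minus strand. ALDH3B1 and ALDH3B2 share 42 of the 45 bases and ALDH1B1 and ALDH2 share 40, while ALDH1A1 and ALDH1A3 share 34, fewer than ALDH3A1 shares with ALDH3B1, ALDH3B2 or ALDH3A2; ALDH3B2 and ALDH4A1 share 15, the lowest count among the 10 members. Over whole coding sequences the identity was 86.8% between ALDH3B1 and ALDH3B2, 73.2% between ALDH1B1 and ALDH2 and 68.2% between ALDH1A1 and ALDH1A3. Some members are also neighbours on the chromosome: ALDH3B1 and ALDH3B2 lie 327.4 kb apart, and ALDH3A1 and ALDH3A2 lie 60.4 kb apart on chromosome 17.

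Long stretches in common were few in the closest pair. ALDH3B1 and ALDH3B2 share 35 exonic windows of 50 bases, which is 1.09% of the ALDH3B2 windows, and the ALDH1A1 windows match no other annotated gene. Windows that match any other annotated gene made up 37.6% for ALDH4A1, 24.3% for ALDH1A3 and 9.45% for ALDH2, and in each case the gene sharing the most windows has no value in the table. The strand protocol of the libraries is not stated, so how reads from such windows were counted is not known.

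The study lists a pair of primers for quantitative PCR of ALDH2, shown here because they mark which stretch of the gene that assay reads. Capitals mark the bases that differ from the closest site in another ALDH gene.
ALDH2 forward primer: atgGcaagccCTatGtCaTct
ALDH2 reverse primer: ccGtggTActtAtcagccca

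The forward primer matches exon 4 of ALDH2 at chr12:111785286-111785306 and the reverse primer matches exon 5 at chr12:111789836-111789855 (GRCh38), with a product of 94 bases in the transcript. Both primers also match, in full, 1 other annotated gene, which overlaps ALDH2 on the same strand and has no value in the table. The closest sites in other ALDH genes are in ALDH6A1, with 6 mismatches to the forward primer, and in ALDH1A1, with 4 mismatches to the reverse primer.

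The sort labels were checked against marker genes. CD24 averaged 7.74 FPKM in SUM149PT CSC and 139.5 in SUM149PT non-CSC, and 23.4 in HCC1937 CSC; it was 141.4 to 166.5 in HCC1937 non-CSC, while SUM159PT averaged 0.729. CD24 was lower in the CSC fraction of both lines (log2 fold change -4.15 in SUM149PT and -2.67 in HCC1937), and CD44 differed little (0.39 and 0.12, neither called). CD44 averaged 28.8 FPKM in SUM159PT, against 84.4 and 64.5 in SUM149PT CSC and non-CSC and 106.3 and 97.8 in those of HCC1937. It was called lower in SUM159PT than in SUM149PT CSC (-1.55) and HCC1937 CSC (-1.88). Here and below, a gene is called when limma's p-value, adjusted over all genes tested in that comparison, is at most 0.05 and the log2 fold change is at least 1 in size. Tests ran on log2(FPKM + 0.1), so a fold change given for a low value is drawn toward 1.

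Epithelial and mesenchymal markers moved in opposite directions between the same fractions. Of 7 breast epithelial markers, 6 (EPCAM, CDH1, KRT5, KRT8, KRT18 and KRT19) were lower in CSC in both lines, and KRT14 was not called. Their summed level was 129.3 to 133.7 FPKM in SUM149PT CSC against 1782 to 1825 in non-CSC, 532.3 to 635.1 in HCC1937 CSC against 1403 to 1639 in non-CSC, and 277.1 to 292.8 in SUM159PT, with a keratin (KRT8, KRT18 or KRT19) the most abundant in each library. Of 4 mesenchymal markers, VIM (log2 fold change 3.11 in SUM149PT and 2.57 in HCC1937), ZEB1 (2.99 and 2.09) and CDH2 (2.68 and 1.80) were higher in CSC in both lines, and FN1 in HCC1937 (1.17). The mesenchymal sum was 2338 to 2485 FPKM in SUM149PT CSC against 447.4 to 508.0 in non-CSC, 922.8 to 1077 in HCC1937 CSC against 140.5 to 210.9 in non-CSC, and 1227 to 1257 in SUM159PT. VIM was the most abundant mesenchymal marker in each library except SUM149PT non-CSC replicate 1, where FN1 was. In SUM159PT the epithelial sum was nearly all KRT8 and KRT18, and the mesenchymal sum nearly all VIM and FN1. ZEB1 (0.204 FPKM), CDH2 (2.865), EPCAM (0.047), CDH1 (0.068) and KRT19 (0.415) averaged lower there than in any sorted group, as did KRT5 and KRT14. The part of this shift in the ALDH differences below was not tested, and in such bulk samples fewer cells of a type and less RNA per cell cannot be told apart.

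Among markers of cells that a culture of these lines should lack, most blood and endothelial genes were at or near 0, but several fibroblast genes were not. Among 7 blood and endothelial markers the sum ran from 16.1 to 50.9 FPKM, nearly all of it CD68, which epithelial cells also express; CD3E was listed at 0 in all 15 libraries and PTPRC reached at most 0.0986 FPKM. Of the 3 genes tested in that list, CD68, PECAM1 and CDH5 were lower in SUM149PT CSC, and CDH5 was lower in HCC1937 CSC. Among 6 fibroblast and fat markers, COL1A1 was the most abundant in each library and reached 218.8 FPKM in SUM149PT CSC. DCN averaged 16.2 FPKM in SUM149PT non-CSC and 11.3 in SUM159PT, and PDGFRB averaged 9.08 in SUM149PT CSC and 11.6 in SUM159PT. In SUM149PT, COL1A1 (2.14) and PDGFRB (3.10) were higher and DCN (-3.10) lower in CSC, and in HCC1937 COL1A2 was higher (1.58). Of the receptors whose lack defines triple negative tumours, PGR was listed at 0 in 14 of 15 libraries, and the summed level of ESR1, PGR and ERBB2 was 3.44 to 20.0 FPKM, most of it ERBB2. ESR1 was lower in CSC in both lines (-2.61 and -1.85), and ERBB2 was not called (-0.86 and -0.78).

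The 10 members covered a wide range of levels, and their order differed between lines. ALDH1A3 was the most abundant member in the 4 sorted groups and ALDH3B1 in SUM159PT. By its median rank among the 33158 genes ALDH1A3 stood at place 107 in HCC1937 non-CSC, 127 in SUM149PT non-CSC, 142 in HCC1937 CSC, 1730 in SUM149PT CSC and 8562 in SUM159PT. A value of 0 was not read as absence anywhere, since RXRB and PYCRL, genes that most cell types express, are listed at 0 in all 3 SUM159PT libraries and in all 15 libraries respectively.

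**Figure D1:**
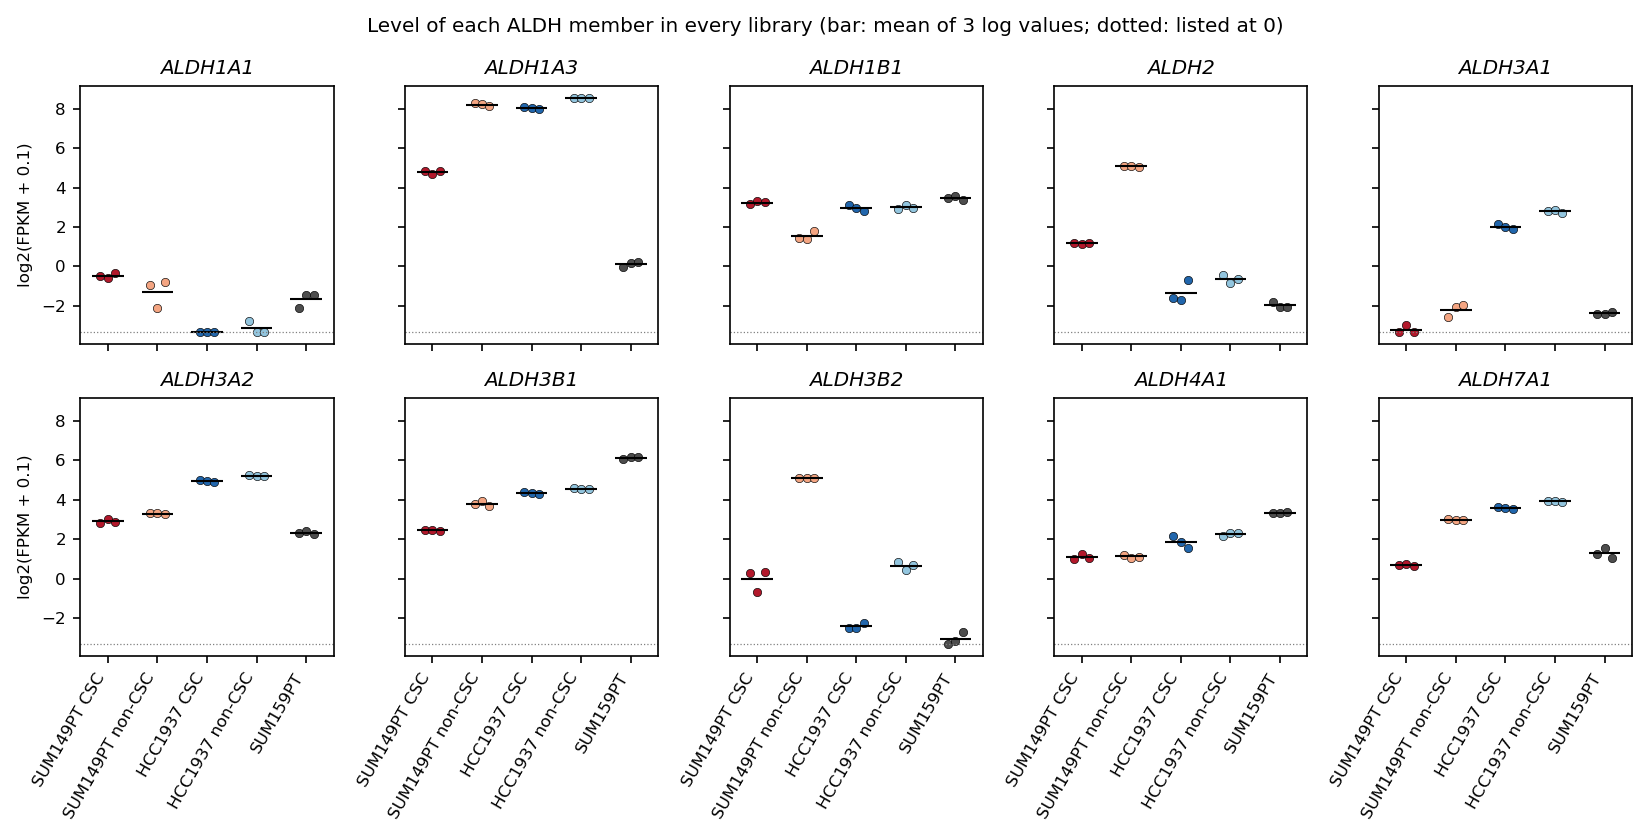
Level of each of the 10 ALDH members in the 15 libraries, as log2(FPKM + 0.1) on the vertical axis, with 1 point per library, a bar at the mean of the 3 log values of each group, and a dotted line where a gene listed at 0 falls. ALDH1A3 sits highest in the 4 sorted groups and near 1 FPKM in SUM159PT, where ALDH3B1 is the highest member.

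The first question of the design is how the CSC and non-CSC fractions of SUM149PT differ. In this line 6 of the 9 members tested were called: ALDH1B1 was higher in CSC, and ALDH1A3, ALDH2, ALDH3B1, ALDH3B2 and ALDH7A1 were lower. Over all 16037 genes tested, 12.8% were called higher and 22.1% lower. The median log2 fold change was -1.34 over the members tested and -0.11 over all genes tested. ALDH3A1 fell below the minimum mean of 0.1 FPKM and was not tested in this line. By range alone, 7 of 10 members were lower in all SUM149PT CSC libraries than in any non-CSC library, 2 were higher and ALDH4A1 overlapped; over all genes tested in that line 78.7% did not overlap.

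The same question in HCC1937 gave smaller differences. Of 9 members tested, ALDH3B2 was called, lower in CSC, beside 2.71% of 15582 genes called higher and 6% called lower. ALDH3B2 passed the expression minimum through non-CSC alone (mean 1.476 FPKM), as its CSC mean was 0.0894 FPKM. The median log2 fold change was -0.43 over the members tested and -0.03 over all genes tested. With no limit on the fold change, 5 of the 9 members had a limma adjusted p of at most 0.05, each lower in CSC: ALDH1A3, ALDH3A1, ALDH3A2, ALDH3B2 and ALDH7A1. By that limit alone 15.3% of all genes tested were lower. ALDH1A1 was below the minimum and was not tested. By range, 7 of 10 members were lower in all HCC1937 CSC libraries than in any non-CSC library and 3 overlapped (ALDH1A1, ALDH1B1 and ALDH2), where 43.4% of all genes tested did not overlap. With 3 libraries against 3, an exact two-sided permutation test of a single gene cannot give a p below 0.10, so the tests below are those of limma, which pools the spread over genes.

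**Figure D2:**
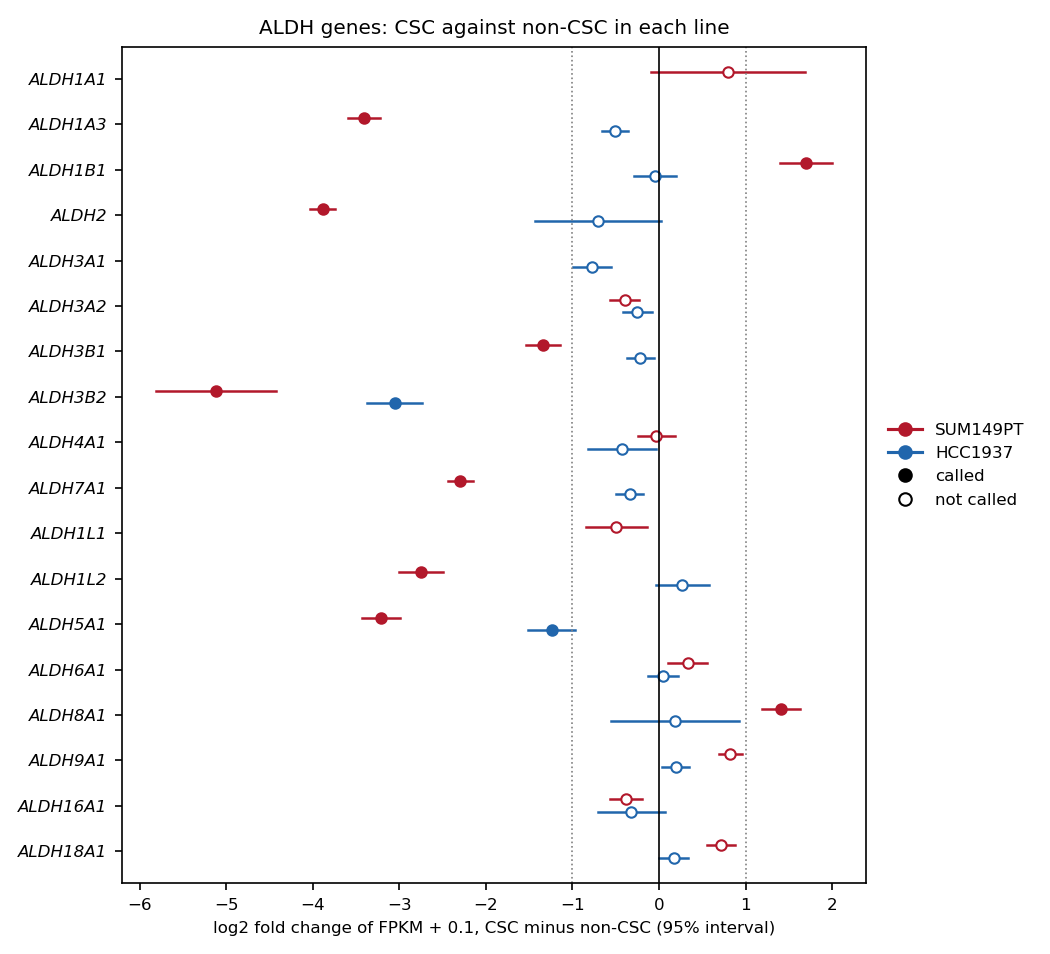
Log2 fold change, CSC minus non-CSC, of each ALDH gene tested, with its 95% confidence interval, in SUM149PT (red) and HCC1937 (blue); filled points were called and dotted lines mark a log2 fold change of -1 and 1. ALDH3B2, ALDH2 and ALDH1A3 lie farthest to the lower side in SUM149PT, and in HCC1937 ALDH3B2 is the member beyond the limit.

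Of the members that make retinoic acid, ALDH1A3 was the more abundant in all 5 groups. Its level was 28.9, 26.0 and 28.2 FPKM in the SUM149PT CSC libraries and 310.7, 295.2 and 275.6 in SUM149PT non-CSC. In HCC1937 it was 268.0, 259.6 and 255.2 FPKM in CSC and 368.3, 374.1 and 367.4 in non-CSC, and in SUM159PT it was 0.892, 1.03 and 1.05. No 2 of these 5 groups overlap, and the order from high to low is HCC1937 non-CSC, SUM149PT non-CSC, HCC1937 CSC, SUM149PT CSC, SUM159PT. In SUM149PT the log2 fold change was -3.40 (standard error 0.0750, 95% confidence interval -3.59 to -3.22, adjusted p = 2.01e-06), a 10.6-fold lower level in CSC. In HCC1937 the difference had the same direction but was smaller (-0.50, standard error 0.0600, adjusted p = 0.00273), a 1.42-fold lower level that was not called. The difference between these effects, tested as an interaction (SUM149PT effect minus HCC1937 effect), was -2.90 with an adjusted p of 9.97e-09.

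ALDH1A1, the other retinal-oxidising member, was listed at 0.691 FPKM or less in all 15 libraries, and a 0 was not read as low expression. Its level was 0.604, 0.577 and 0.691 FPKM in SUM149PT CSC and 0.426, 0.135 and 0.481 in SUM149PT non-CSC. In HCC1937 it was listed at 0 in all 3 CSC libraries and in replicates 2 and 3 of non-CSC, with 0.0469 FPKM in replicate 1, and in SUM159PT it was 0.136, 0.266 and 0.266. The SUM149PT CSC libraries were the highest of the 15, above all 3 non-CSC libraries, but non-CSC replicate 2 stood well below the other 2. The SUM149PT log2 fold change was 0.80 (95% confidence interval -0.09 to 1.68, adjusted p = 0.0882), which was not called, and after quantile normalization it was 1.35 (adjusted p = 0.0162). The interaction was 0.98 (adjusted p = 0.067), not called; it was called without SUM149PT non-CSC replicate 1 (1.15, adjusted p = 0.0492), without SUM149PT non-CSC replicate 3 (1.23, adjusted p = 0.0272) and after quantile normalization (1.62). Without SUM149PT non-CSC replicate 2 both values were smaller, 0.39 for the SUM149PT difference and 0.57 for the interaction, and neither was called; the HCC1937 side of the interaction lies at or near 0 FPKM. Its mean in SUM149PT CSC, 0.624 ± 0.0595 FPKM (SD, n = 3), compares with 27.7 ± 1.54 for ALDH1A3 in the same libraries.

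The mitochondrial members ALDH2, which clears acetaldehyde formed from ethanol, and ALDH1B1, its closest relative in sequence, moved in opposite directions in SUM149PT. ALDH2 was at 2.22, 2.09 and 2.21 FPKM in SUM149PT CSC and at 34.4, 33.5 and 32.4 in SUM149PT non-CSC. HCC1937 had 0.226, 0.208 and 0.522 FPKM in CSC and 0.634, 0.469 and 0.552 in non-CSC, and SUM159PT had 0.187, 0.142 and 0.142. ALDH2 was thus high in a single group, SUM149PT non-CSC, and the HCC1937 fractions overlapped, as CSC replicate 3 lay above non-CSC replicate 2. The log2 fold change in SUM149PT was -3.88 (standard error 0.0573, 95% confidence interval -4.03 to -3.74, adjusted p = 1.40e-06), a 14.8-fold lower level in CSC. In HCC1937 it was -0.71 (adjusted p = 0.142), not called; without CSC replicate 3 it was -1.03 (adjusted p = 0.00909) and was called.

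ALDH1B1 was at 8.72, 9.82 and 9.41 FPKM in SUM149PT CSC and at 2.62, 2.51 and 3.33 in SUM149PT non-CSC. HCC1937 libraries had 8.42, 7.63 and 6.95 FPKM in CSC and 7.49, 8.46 and 7.79 in non-CSC, and SUM159PT had 10.8, 11.8 and 10.1. SUM149PT non-CSC was the low group, and the other 4 lay between 6.95 and 11.8 FPKM. In SUM149PT the log2 fold change was 1.70 (95% confidence interval 1.40 to 2.00, adjusted p = 6.71e-05), a 3.24-fold higher level in CSC and the only higher call among the members tested there. In HCC1937 the difference was -0.05 (adjusted p = 0.762), and its sign turned under 4 scaling alternatives and without HCC1937 CSC replicate 3 (0.019) or non-CSC replicate 2. The interaction was 1.75 (adjusted p = 7.99e-06) for ALDH1B1 and -3.18 (adjusted p = 1.55e-05) for ALDH2. ALDH2 exceeded ALDH1B1 in SUM149PT non-CSC, and ALDH1B1 exceeded ALDH2 in each of the other 4 groups.

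Among the ALDH3 members, which act on medium and long chain aldehydes, ALDH3B2 was the member called in both lines. Its level was 1.12, 0.528 and 1.15 FPKM in SUM149PT CSC and 33.9, 34.3 and 34.2 in SUM149PT non-CSC. The HCC1937 values were 0.0793, 0.0776 and 0.111 FPKM in CSC and 1.67, 1.26 and 1.51 in non-CSC, and in SUM159PT it was 0, 0.0130 and 0.0527. Each non-CSC group lay far above the CSC group of its own line, and SUM159PT was lowest. The log2 fold change was -5.12 in SUM149PT (standard error 0.278, 95% confidence interval -5.81 to -4.43, adjusted p = 2.39e-05), a 34.7-fold lower level, and -3.05 in HCC1937 (standard error 0.129, 95% confidence interval -3.37 to -2.73, adjusted p = 1.48e-04), an 8.3-fold lower level. The interaction of ALDH3B2 was -2.07 (adjusted p = 3.57e-04). Low values make these sizes depend on the pseudocount: with 1 in place of 0.1 the HCC1937 difference was -1.18 and the interaction -3.02, and with 0.01 they were -3.91 and -1.35, all called. With the study's adjusted p limit of 0.0001 neither was called. Of 8 members tested in both lines, ALDH3B2 was the 1 called lower in both, beside 579 (4.01%) of the 14423 genes tested in both. Its HCC1937 CSC mean of 0.0894 FPKM lay under the expression minimum, so ALDH3B2 entered that test through non-CSC alone.

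ALDH3B1, which acts on lipid-derived aldehydes and is the closest relative of ALDH3B2, followed another order. It was at 5.40, 5.39 and 5.27 FPKM in SUM149PT CSC and at 13.5, 15.1 and 12.7 in SUM149PT non-CSC. In HCC1937 it was at 20.6, 20.1 and 19.2 FPKM in CSC and at 23.8, 22.9 and 22.9 in non-CSC, and in SUM159PT at 66.5, 72.3 and 70.8. SUM159PT, where ALDH3B2 was near 0, was the highest group for ALDH3B1, and none of the 5 groups overlapped. The log2 fold change was -1.34 in SUM149PT (standard error 0.0775, adjusted p = 3.02e-05) and -0.22 in HCC1937 (adjusted p = 0.0596, not called). Its interaction was -1.13 (adjusted p = 4.42e-06), and with each library's trend on transcript GC content removed it was -0.91 and no longer called.

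ALDH3A2, the fatty aldehyde dehydrogenase that is lost in Sjögren-Larsson syndrome, averaged 7.36 ± 0.500 FPKM in SUM149PT CSC, 9.72 ± 0.237 in SUM149PT non-CSC, 30.9 ± 1.06 in HCC1937 CSC, 36.7 ± 1.22 in HCC1937 non-CSC and 4.93 ± 0.284 in SUM159PT (SD, n = 3 each). In each line the CSC libraries all lay below the non-CSC libraries, but neither difference reached the limit (-0.40 in SUM149PT, adjusted p = 0.00276, and -0.25 in HCC1937, adjusted p = 0.0424). ALDH3A1, a cytosolic enzyme best known from the cornea, was listed at 0 in SUM149PT CSC replicates 1 and 3 and at 0.0294 FPKM in replicate 2. It was at 0.0707, 0.142 and 0.158 FPKM in SUM149PT non-CSC, at 4.29, 3.94 and 3.64 in HCC1937 CSC, at 6.96, 7.12 and 6.43 in HCC1937 non-CSC and at 0.0874, 0.0907 and 0.105 in SUM159PT. ALDH3A1 was therefore above 1 FPKM in HCC1937 alone among the 3 lines, and lower in the CSC than the non-CSC libraries of that line (-0.78, adjusted p = 0.00232, not called). Its interaction of -0.24 (adjusted p = 0.384) rests on values near 0 in SUM149PT: it was -2.22 with a pseudocount of 0.01, -1.28 with TPM scaling (both called) and 0.51 with a pseudocount of 1.

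Of the mitochondrial members that break down amino acids, ALDH7A1, which acts in lysine breakdown, differed between the SUM149PT fractions, and ALDH4A1, which completes proline breakdown, did not pass the test. ALDH7A1 was at 1.48, 1.59 and 1.45 FPKM in SUM149PT CSC and at 7.95, 7.65 and 7.70 in SUM149PT non-CSC. HCC1937 stood at 12.1, 11.7 and 11.4 FPKM in CSC and at 15.2, 15.1 and 14.5 in non-CSC, and in SUM159PT at 2.23, 2.86 and 1.95. None of these groups overlapped, and SUM149PT CSC was the lowest. The log2 fold change was -2.29 in SUM149PT (standard error 0.0586, adjusted p = 2.78e-06), a 4.9-fold lower level, and -0.34 in HCC1937 (adjusted p = 0.0132, not called), with an interaction of -1.95 (adjusted p = 3.13e-08). ALDH4A1 averaged 2.03 ± 0.185 FPKM in SUM149PT CSC, 2.07 ± 0.114 in SUM149PT non-CSC, 3.54 ± 0.734 in HCC1937 CSC, 4.73 ± 0.314 in HCC1937 non-CSC and 9.86 ± 0.204 in SUM159PT (SD, n = 3 each). Its difference was -0.03 in SUM149PT (adjusted p = 0.763), with a sign that turned under 4 scaling alternatives and without replicate 1 of either fraction, and -0.43 in HCC1937 (adjusted p = 0.111).

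In the interaction test, which asks whether the CSC effect differs between the 2 sorted lines, 6 of 10 members were called: ALDH1B1 higher, and ALDH1A3, ALDH2, ALDH3B1, ALDH3B2 and ALDH7A1 lower in SUM149PT relative to HCC1937. Over all 16451 genes tested, 12.2% were called higher and 18.2% lower. The median was -0.68 over the members and -0.08 over all genes tested. ALDH3A2 (-0.15, adjusted p = 0.171) and ALDH4A1 (0.40, adjusted p = 0.0929) were not called.

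Summed over the 10 members, FPKM was 57.0 ± 0.774 in SUM149PT CSC, 398.0 ± 18.9 in SUM149PT non-CSC, 339.1 ± 10.2 in HCC1937 CSC, 466.3 ± 4.26 in HCC1937 non-CSC and 99.4 ± 4.0 in SUM159PT (SD, n = 3 each). As a percent of all FPKM in the library the order of the lowest 2 groups turned: 0.0188% in SUM149PT CSC, 0.128% in SUM149PT non-CSC, 0.106% in HCC1937 CSC, 0.133% in HCC1937 non-CSC and 0.0154% in SUM159PT, whose libraries have larger FPKM totals. Without ALDH1A3 the sums were 29.3 ± 0.908, 104.0 ± 1.46, 78.2 ± 3.71, 96.4 ± 1.86 and 98.4 ± 3.94 in the same order, so that ALDH1A3 accounted for most of the total in 3 of the 5 groups. The share of ALDH1A3 in the summed FPKM was 48.6% ± 2.14 in SUM149PT CSC, 73.8% ± 0.922 in SUM149PT non-CSC, 77.0% ± 0.400 in HCC1937 CSC, 79.3% ± 0.340 in HCC1937 non-CSC and 0.998% ± 0.0645 in SUM159PT. In SUM149PT CSC the next shares were ALDH1B1 with 16.4% ± 1.14, ALDH3A2 with 12.9% ± 1.04 and ALDH3B1 with 9.39% ± 0.233. In SUM149PT non-CSC they were ALDH3B2 with 8.59% ± 0.445 and ALDH2 with 8.41% ± 0.143, while in HCC1937 ALDH3A2 came next with 9.10% in CSC and 7.87% in non-CSC. In SUM159PT ALDH3B1 held 70.3% ± 0.954, ALDH1B1 11% ± 0.716 and ALDH4A1 9.93% ± 0.439. The composition thus differed by line as well as by fraction, and these shares count the 10 members alone. Over all 19 ALDH genes ALDH1A3 held 22.5% in SUM149PT CSC, where ALDH18A1 was more abundant, and ALDH3B1 held 43.0% in SUM159PT.

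**Figure D3:**
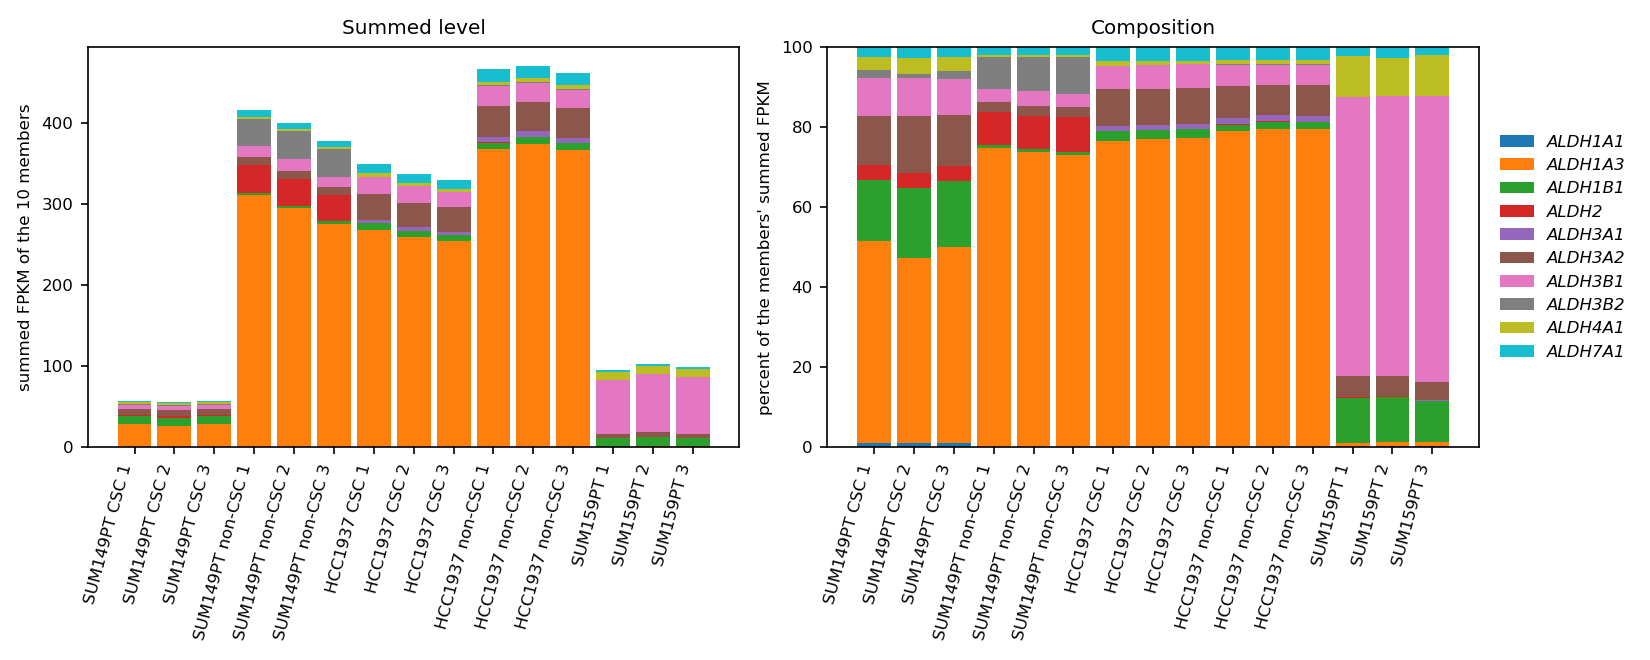
Summed FPKM of the 10 ALDH members in each of the 15 libraries (left, stacked by gene) and each gene's percent of that sum (right). ALDH1A3 takes the largest part in the 12 sorted libraries and ALDH3B1 in the 3 SUM159PT libraries.

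The lines were also compared with each other over both fractions, as HCC1937 minus SUM149PT. Of 10 members tested, ALDH1A3 (log2 fold change 1.78, adjusted p = 1.07e-10), ALDH3A1 (5.10, adjusted p = 4.77e-11), ALDH3A2 (1.98, adjusted p = 5.21e-11), ALDH3B1 (1.32, adjusted p = 1.32e-09) and ALDH7A1 (1.91, adjusted p = 2.60e-11) were higher in HCC1937. ALDH1A1 (-2.36), ALDH2 (-4.11, adjusted p = 2.49e-09) and ALDH3B2 (-3.42, adjusted p = 1.22e-08) were lower. Over all genes tested, 22.4% were called higher and 17.9% lower, and the median was 0.16, beside 1.14 over the members. These differences pool unlike fractions: the mean of ALDH1A3 was 369.9 FPKM in HCC1937 non-CSC against 293.8 in SUM149PT non-CSC, but 260.9 against 27.7 in CSC. The size for ALDH3A1 ran from 2.55 to 6.86 over the alternatives, all called. ALDH3A1 passed the expression minimum through HCC1937 alone, as it averaged 0.0098 FPKM in SUM149PT CSC and 0.123 in SUM149PT non-CSC. ALDH1A1 passed the expression minimum through SUM149PT alone, and its value rests on HCC1937 libraries listed at 0. With a pseudocount of 1 the ALDH1A1 difference was -0.55 and not called. ALDH1B1 (0.59) and ALDH4A1 (0.95) were not called, and without HCC1937 CSC replicate 3 the ALDH4A1 difference was 1.03 and called.

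SUM159PT was compared with the CSC fraction of each sorted line, which asks how a line labelled as stem cells as a whole relates to sorted CSC. These libraries stood apart: FPKM summed over all genes was 634746 to 652082 in SUM159PT and 291276 to 366532 in the sorted libraries, and 8534 to 8670 genes against 11249 to 11997 were above 1 FPKM. The median log2 fold change over all genes tested was -0.76 against SUM149PT CSC and -0.97 against HCC1937 CSC, so each member is to be read against that shift. Against SUM149PT CSC, ALDH3B1 (3.68, adjusted p = 2.07e-07) and ALDH4A1 (2.23, adjusted p = 1.04e-06) were higher among 9 members tested. ALDH1A3 (-4.67, adjusted p = 2.10e-07), ALDH2 (-3.15, adjusted p = 4.59e-07), ALDH3B2 (-3.04, adjusted p = 1.09e-04) and ALDH1A1 (-1.19, adjusted p = 0.00106) were lower. Over all 14976 genes tested, 21.3% were called higher and 45.6% lower, and the members' median was -0.57. Over the alternatives ALDH3B1 ran from 2.61 to 5.05, ALDH4A1 from 1.18 to 3.60, ALDH1A3 from -5.80 to -3.30 and ALDH2 from -4.41 to -1.45, all called. With the study's adjusted p limit of 0.0001 the calls of ALDH1A1 and ALDH3B2 ended. The call of ALDH1A1 ended without SUM159PT replicate 1 (-0.98), with a pseudocount of 1 (-0.41) and with upper quartile scaling (-0.94), and its sign turned with quantile normalization (0.070), the GC trend removed or median centring. The ALDH3B2 call ended with a pseudocount of 1 (-0.90). ALDH3B2 averaged 0.0219 FPKM in SUM159PT, with 1 library listed at 0, and passed the expression minimum through SUM149PT CSC alone. No conclusion is drawn from its call. ALDH1B1 (0.23), ALDH3A2 (-0.57) and ALDH7A1 (0.59) were not called, and each changed sign under 1 or more scalings. ALDH7A1 was called higher with quantile normalization (1.96), the GC trend removed (2.02) or median centring (1.96), and ALDH1B1 with median centring (1.60). ALDH3A2 was called lower with TPM scaling (-1.66) and higher with the GC trend removed (1.06).

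Against HCC1937 CSC, ALDH1A3 was lower in SUM159PT by 239-fold (-7.90, adjusted p = 9.09e-08). ALDH3A1 (-4.38, adjusted p = 1.91e-07), ALDH3A2 (-2.62, adjusted p = 5.11e-07) and ALDH7A1 (-2.29, adjusted p = 9.09e-06) were lower too. ALDH3B1 (1.80, adjusted p = 1.95e-06) and ALDH4A1 (1.47, adjusted p = 1.19e-04) were higher. ALDH1A1 was called higher too, but HCC1937 CSC was listed at 0, so it passed the expression minimum through SUM159PT alone. Its call follows from that filter, no conclusion is drawn from it and no fold is given. With ALDH1A1 counted, that made 7 of 9 members tested, with 18.5% of all 15515 genes called higher and 48.3% lower. The median was -0.63 over the members. TPM scaling ended the calls of ALDH3B1 (0.80) and ALDH4A1 (0.49), removing the GC trend ended those of ALDH3A2 (-0.82) and ALDH7A1 (-0.68), and median centring that of ALDH7A1 (-0.74). A pseudocount of 1 ended the call of ALDH1A1 (0.29), and the study's limit ended those of ALDH1A1 and ALDH4A1. ALDH1B1 (0.51) and ALDH2 (-0.63) were not called; ALDH1B1 was called higher with upper quartile scaling (1.08), quantile normalization (1.34) or median centring (2.06), and ALDH2 lower with TPM scaling (-1.57). ALDH1A3 ran from -8.96 to -6.35 and ALDH3A1 from -5.66 to -2.18 over the alternatives. ALDH3A1 averaged 0.0942 FPKM in SUM159PT and passed the expression minimum through HCC1937 CSC alone.

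The 9 other ALDH genes were tested the same way. In SUM149PT, 3 of the 8 tested were called, where 12.8% of all genes were called higher and 22.1% lower: ALDH8A1 was higher in CSC (1.41, adjusted p = 3.82e-05), and ALDH1L2, a mitochondrial folate enzyme (-2.75, adjusted p = 6.52e-06), and ALDH5A1, the succinic semialdehyde dehydrogenase of GABA breakdown (-3.21, adjusted p = 3.12e-06), were lower. ALDH5A1 averaged 0.393 FPKM in SUM149PT CSC and 4.44 in non-CSC, ALDH1L2 0.215 and 2.01, and ALDH8A1 0.741 and 0.217. In HCC1937, ALDH5A1 was the gene called among 7 tested, beside 6% of all genes called lower (-1.24, adjusted p = 0.00101), with 1.60 FPKM in CSC and 3.90 in non-CSC. The median log2 fold change of these genes was -0.02 in SUM149PT and 0.17 in HCC1937, against -1.34 and -0.43 for the members tested in each line. Members were chosen with earlier results of these data known, so this contrast is a description only. ALDH5A1 and ALDH3B2 were thus the ALDH genes called lower in both lines. ALDH1A2, another retinal-oxidising gene, reached at most 0.0492 FPKM in any library. ALDH18A1, a proline synthesis enzyme, was the most abundant of these 9 in SUM149PT CSC at 42.6 FPKM, above the 27.7 of ALDH1A3, with 25.8 in SUM149PT non-CSC. In the interaction test 1 of 7 was called higher and 2 lower (12.2% and 18.2% of all genes), and between lines 3 were higher (22.4% of all genes). SUM159PT had 2 of 8 higher and 3 lower against SUM149PT CSC (21.3% and 45.6% of all genes) and 2 of 8 higher and 4 lower against HCC1937 CSC (18.5% and 48.3%).

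Among genes that handle retinoids around ALDH1A3, more were called lower than higher in CSC, as among all genes tested; the list was not tested against other genes. Of 22 listed genes, 17 were tested in SUM149PT, with 2 higher in CSC and 10 lower (median -1.18), beside 12.8% and 22.1% of all genes. In HCC1937 19 were tested and 5 were lower (median -0.55), beside 6% of all genes. Of 16 tested in both lines, 4 were lower in both, RARRES1, CRABP2 and LRAT among them, beside 4.01% of all genes tested in both. RARRES1, named for its response to retinoids, averaged 8.43 FPKM in SUM149PT CSC, 280.6 in SUM149PT non-CSC, 9.31 in HCC1937 CSC, 64.3 in HCC1937 non-CSC and 0.136 in SUM159PT. Its log2 fold change was -5.05 in SUM149PT (adjusted p = 1.82e-06) and -2.77 in HCC1937 (adjusted p = 2.20e-04). CRABP2, which carries retinoic acid to its receptors, averaged 7.34, 87.7, 68.1, 378.3 and 2.45 FPKM in the same order of groups, with log2 fold changes of -3.56 (adjusted p = 1.55e-06) and -2.47 (adjusted p = 1.28e-04). RARRES1 and CRABP2 were, like ALDH3B2, lower in each CSC group than in the non-CSC group of the same line and lowest in SUM159PT.

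LRAT, which stores retinol as esters, changed by -3.19 in SUM149PT and -1.23 in HCC1937; it and the next 4 genes were chosen after their values were seen. CYP26B1, which breaks down retinoic acid, and the receptor RXRA were the 2 genes higher in SUM149PT CSC (1.47 and 1.43), and in HCC1937 they were not called (0.98 and -0.43). RDH10, which makes the retinal that ALDH1A3 oxidises, and STRA6, which takes up retinol, were lower in SUM149PT CSC (-3.46 and -3.63) and not called in HCC1937 (-0.73 and -0.70). Of the other receptors listed, RARG and RXRB were called lower in SUM149PT CSC, opposite to RXRA. RARA and RARB were not called there, and RXRG was not tested. In the interaction test 2 of 20 retinoid genes were called higher and 8 lower, beside 12.2% and 18.2% of all genes. Between lines 7 of 20 were higher in HCC1937 and 5 lower (median -0.35), beside 22.4% and 17.9%. In SUM159PT 2 of 16 were higher and 10 lower against SUM149PT CSC (median -1.67), beside 21.3% and 45.6% of all genes and a median of -0.76. Against HCC1937 CSC 2 of 19 were higher and 12 lower (median -2.12), beside 18.5% and 48.3% and a median of -0.97.

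**Figure D4:**
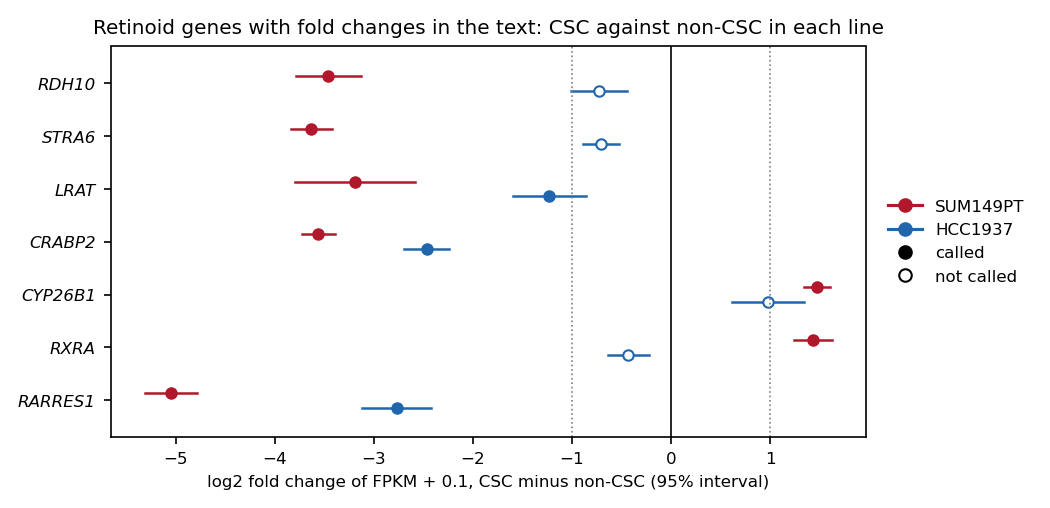
Log2 fold change, CSC minus non-CSC, of the 7 retinoid pathway genes whose fold changes are given in the text, each with its 95% confidence interval, in SUM149PT (red) and HCC1937 (blue); filled points were called and dotted lines mark -1 and 1. RARRES1, CRABP2 and LRAT lie beyond -1 in both lines, and CYP26B1 and RXRA lie beyond 1 in SUM149PT. The receptors RARG and RXRB, called lower in SUM149PT CSC, are not drawn.

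Enzymes that make or remove aldehydes beside the family formed 3 further lists. Their calls stand beside 12.8% of all genes tested called higher and 22.1% lower in SUM149PT, and 2.71% and 6% in HCC1937. Of 7 alcohol dehydrogenases, ADH5 was the one tested, and it was not called (0.21 in SUM149PT and 0.48 in HCC1937). Of 10 aldo-keto and carbonyl reductases, which reduce aldehydes to alcohols, AKR1B10 was lower in SUM149PT CSC (-2.18, adjusted p = 4.68e-05) and AKR1C1 higher in HCC1937 CSC (1.58, adjusted p = 9.10e-04). In SUM149PT the AKR1C1 difference had the other direction (-0.55, adjusted p = 0.00366, not called), and its interaction was called (-2.13). Of 10 enzymes that feed or compete with the mitochondrial members, 8 were tested. AASS, which starts the lysine breakdown that ALDH7A1 continues, was higher in SUM149PT CSC (1.61, adjusted p = 1.38e-05), opposite in direction to ALDH7A1. Of the 2 called lower there, the choline dehydrogenase CHDH had a log2 fold change of -1.89 (adjusted p = 1.08e-04). CHDH averaged 0.0119 FPKM in SUM149PT CSC, with 2 libraries listed at 0, and 0.312 in non-CSC. It thus passed the expression minimum through non-CSC alone, and its size ran from -4.27 to -0.37 over the alternatives. In HCC1937 CSC, ABAT, which makes the substrate of ALDH5A1, was lower (-1.05, adjusted p = 3.05e-04), while in SUM149PT the difference had the other direction (0.80, adjusted p = 5.40e-05, not called), and the interaction was called (1.84). The HCC1937 call of ABAT lies at the limit and was made in 13 of 17 alternatives.

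Finally, the genes whose levels were most like those of the 4 members with the widest range of group means were found among the 12164 genes that averaged 1 FPKM or more, by Pearson's r of log2(FPKM + 0.1) over the 15 libraries. The libraries share 5 groups, so these values describe the pattern of the groups and carry no test. For ALDH1A3, whose group means ranged over 8.41 log2 units, the genes were NMNAT2 (r = 0.999), FAM84B (0.999) and TAOK3 (0.998). FAM84B averaged 6.44 FPKM in SUM149PT CSC, 38.3 in SUM149PT non-CSC, 38.2 in HCC1937 CSC, 57.0 in HCC1937 non-CSC and 0.271 in SUM159PT. For ALDH3B2 (8.16 log2 units) they were CA2 (0.990), STEAP4 (0.988) and CHP1 (0.986), and STEAP4 averaged 3.77, 134.4, 0.421, 3.98 and 0.0403 FPKM in that order of groups. For ALDH2 (7.03 log2 units) they were SLC26A9 (0.992), NR4A1 (0.991) and CCNA1 (0.989), and SLC26A9 averaged 46.9 FPKM in SUM149PT non-CSC and at most 1.73 in the other groups. For ALDH3A1 (5.99 log2 units) they were GSDMC (0.996), DNMT1 (0.994) and MGC57346 (0.992), and DNMT1 averaged 28.2 and 29.3 FPKM in the HCC1937 fractions against 7.37 to 8.76 in the other groups.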

How the data were processed

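Gene levels in FPKM were taken from the table that the authors deposited, 33158 gene symbols by 15 libraries; the authors' notes name Bowtie2 and GRCh38, and the quantifier and annotation are not given in the sources used here. The 12 sorted and 3 unsorted libraries were grouped by line and fraction. Read counts could not be recovered: among genes under 0.1 FPKM, 12.6% to 40.3% lay at simple multiples of each other between 2 libraries (tolerance 1%), so depth is unknown. The linear models and moderated statistics of limma 3.58.1 (R 4.3.3) were applied to log2(FPKM + 0.1) in each of 6 comparisons, for genes averaging 0.1 FPKM or more over its libraries. P-values were adjusted by Benjamini and Hochberg over all genes tested, and a call needed adjusted p ≤ 0.05 together with a log2 difference of 1 or more in size. The procedure was tested on simulated data, but no outcome of that test is given here. Tables and figures were made with Python 3.11.15, numpy 2.4.6, pandas 2.3.3, scipy 1.17.1 and matplotlib 3.10.9. Sequences and positions came from GENCODE release 29 on GRCh38. Members and lists were chosen with earlier results of these data known. Named genes were the 10 members, other ALDH genes called in SUM149PT or HCC1937, from each further list up to 3 genes per direction called alike in both lines (if none, up to 2 called in 1 line), and the 3 genes most correlated with each of the 4 members of widest range. Some genes that this rule would name are not reported. Further lists were retinoid pathway genes, alcohol dehydrogenases, aldo-keto and carbonyl reductases, enzymes feeding mitochondrial members, and markers of the sort, epithelium, mesenchyme, receptors, blood and endothelium, and fibroblasts and fat. Alternatives were other pseudocounts, expression minima, cutoffs, TPM, upper quartile and quantile scaling, other limma settings, a fit over all libraries, a replicate block and each library left out. Removing the GC trend and median centring were chosen after seeing the data. No column of the table was left out.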

Additional observations from a re-analysis of the deposited data

Results flagged for a closer look

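The difference of the CSC log2 fold change between lines (SUM149PT minus HCC1937) passed the interaction test in limma for 6 members, which is why they are listed here. Over all 16451 genes tested, 12.2% were called higher and 18.2% lower in that test, so a call there is common. The difference was -2.899 for ALDH1A3, 1.746 for ALDH1B1, -3.176 for ALDH2, -1.125 for ALDH3B1, -2.066 for ALDH3B2 and -1.954 for ALDH7A1. For ALDH3B2 the HCC1937 side rests on CSC libraries that averaged 0.0894 FPKM.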

How the results depend on the processing

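Of 1079 member log2 fold changes fitted again under an alternative, 1024 kept their direction and side of the limits, 12 lost and 17 gained a call, and 26 changed sign. Of 133 counts and shares, 9 moved by over 1.5 times (counts) or 1 SD (shares). ALDH1A3, ALDH1B1, ALDH2, ALDH3B1, ALDH3B2 and ALDH7A1 in SUM149PT stayed called in each alternative that gave a value; ALDH3B2 in HCC1937 did so except with the study's cutoffs. Same-numbered CSC and non-CSC libraries did not correlate as pairs (0.088, 0.0226 and 0.08 in SUM149PT; -0.0777, -0.0352 and -0.00886 in HCC1937), and with a replicate block the calls per comparison were 6, 1, 6, 8, 6 and 7, as without it. The HCC1937 count of 1 became 0 with the study's cutoffs, 5 with no fold limit and 0 with a mean of at least 1 FPKM. Leaving out single libraries gave 6 to 6 calls in SUM149PT, 1 to 2 in HCC1937, 6 to 7 for the interaction, 8 to 9 between lines, and 5 to 6 and 6 to 7 for SUM159PT against SUM149PT and HCC1937 CSC. The ALDH1A3 share of all 19 ALDH genes was 22.5%, 66.0%, 63.6% and 69.0% in the sorted groups, and that of ALDH3B1 in SUM159PT 43.0%.

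Signs turned as follows, and the cause was not tested. ALDH4A1 in SUM149PT: TPM 0.012, upper quartile 0.036, quantile 0.29, GC trend removed 0.29, without SUM149PT CSC replicate 1 0.023, without SUM149PT non-CSC replicate 1 0.011. ALDH1B1 in HCC1937: TPM 0.077, upper quartile 0.011, quantile 0.012, GC trend 3.29e-04, without HCC1937 non-CSC replicate 2 8.66e-04, without HCC1937 CSC replicate 3 0.019. ALDH3A1 interaction: pseudocount 1 0.51, quantile 0.12. SUM159PT minus SUM149PT CSC: TPM gave -0.86 for ALDH1B1 and -0.46 for ALDH7A1; quantile, GC trend and median centring gave 0.070, 0.997 and 0.18 for ALDH1A1 and 0.30, 1.06 and 0.80 for ALDH3A2. SUM159PT minus HCC1937 CSC: TPM gave -0.49 for ALDH1B1, and the same 3 gave 0.76, 0.17 and 0.93 for ALDH2.

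Scaling moved the median of all genes most in SUM159PT: by -1.09 (TPM), 0.32 (upper quartile), 1.004 (quantile), 0.72 (GC trend) and 1.37 (median centring) against SUM149PT CSC, and by -1.01, 0.54, 1.12, 0.92 and 1.56 against HCC1937 CSC. Other shifts over 0.1 were 0.19 (quantile, SUM149PT), 0.13 (TPM, HCC1937), 0.11 (quantile, interaction) and, between lines, -0.12 (TPM), -0.18 (upper quartile), -0.10 (quantile) and -0.19 (GC trend). Over the alternatives 9 to 10 retinoid genes were called lower in SUM149PT and 3 to 5 in HCC1937. The call held in 13 of 17 alternatives for ABAT in HCC1937, in 16 of 17 for ALDH5A1 and LRAT in HCC1937, and in 15 of 16 for ALDH8A1, AKR1B10 and CHDH in SUM149PT. Unknown depth limits what low values such as those of ALDH1A1 can show.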
